A study of Caenorhabditis elegans with 10 samples.

Results

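The enzymes and cofactors that process and cross-link cuticle collagen were followed in Caenorhabditis elegans dauers, the arrested larvae that form under adverse conditions. The 10 genes were taken by name from the count tables of 20222 genes, by a rule that sets no threshold on measured values, though earlier results of these data were known when they were chosen. They are dpy-18, phy-2, pdi-2, bli-4, dpy-31, bli-5, bli-3, tsp-15, doxa-1 and mlt-7. RNA from 5 libraries of the double mutant chd-7(gk290);daf-2(e1370) was compared with RNA from 5 libraries of daf-2(e1370). They are called chd-7;daf-2, or the double mutant, and daf-2. Both genotypes carry e1370, a temperature-sensitive allele of the insulin-like receptor gene that makes larvae enter dauer at the restrictive temperature, and gk290 is a deletion allele of the chromatin remodeller gene chd-7. In both groups dauers were collected after 10 days at 25°C that began with synchronized eggs, and an NEBNext Ultra II kit turned their TRIzol-extracted total RNA into libraries. Since whole animals were sequenced, fewer cells of a type and less RNA per cell cannot be told apart. Nothing in the labels says that each library had a culture of its own. The p-values therefore describe the spread among these libraries only, and part of it may be technical.

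The nematode cuticle is an extracellular coat made largely of collagens that the epidermis secretes anew at each moult. Collagen chains are hydroxylated on prolines and folded in the endoplasmic reticulum, cut by proteases at their ends around secretion, and then joined through tyrosine cross-links in the matrix. Loss of these enzymes in C. elegans gives short, blistered or moulting-defective animals, which is where the names dpy, bli and mlt come from.

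In double mutant dauers 3 of the 4 cross-linking genes were called higher, while neither the 3 hydroxylation genes nor bli-4, the 1 cleavage gene tested, passed the test. The dual oxidase gene bli-3 was 2.22-fold higher, its tetraspanin partner tsp-15 was 2.65-fold higher and the peroxidase gene mlt-7 was 3.11-fold higher. The dual oxidase maturation factor gene doxa-1 had almost the same mean level in both genotypes. Of the 10 genes, 8 had enough reads to be tested and 3 of these were called higher at an adjusted p under 0.05, with 0 called lower. The 5 genes not called included phy-2 at an unadjusted p of 0.0437. Across all 12499 tested genes 36.2% were called in either direction, with 17.9% higher and 18.3% lower, so the 37.5% of members called is close to the background. The same 3 genes had no overlap between the genotypes, against 22.7% of all tested genes without overlap in either direction and 12.7% with every double mutant library above every daf-2 library. They were also changed by at least 2-fold, and 14.7% of all tested genes were both called and changed by at least 2-fold in either direction. The median log2 fold change of the 8 members was -0.08 and that of all tested genes was -0.03.

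**Figure D1:**
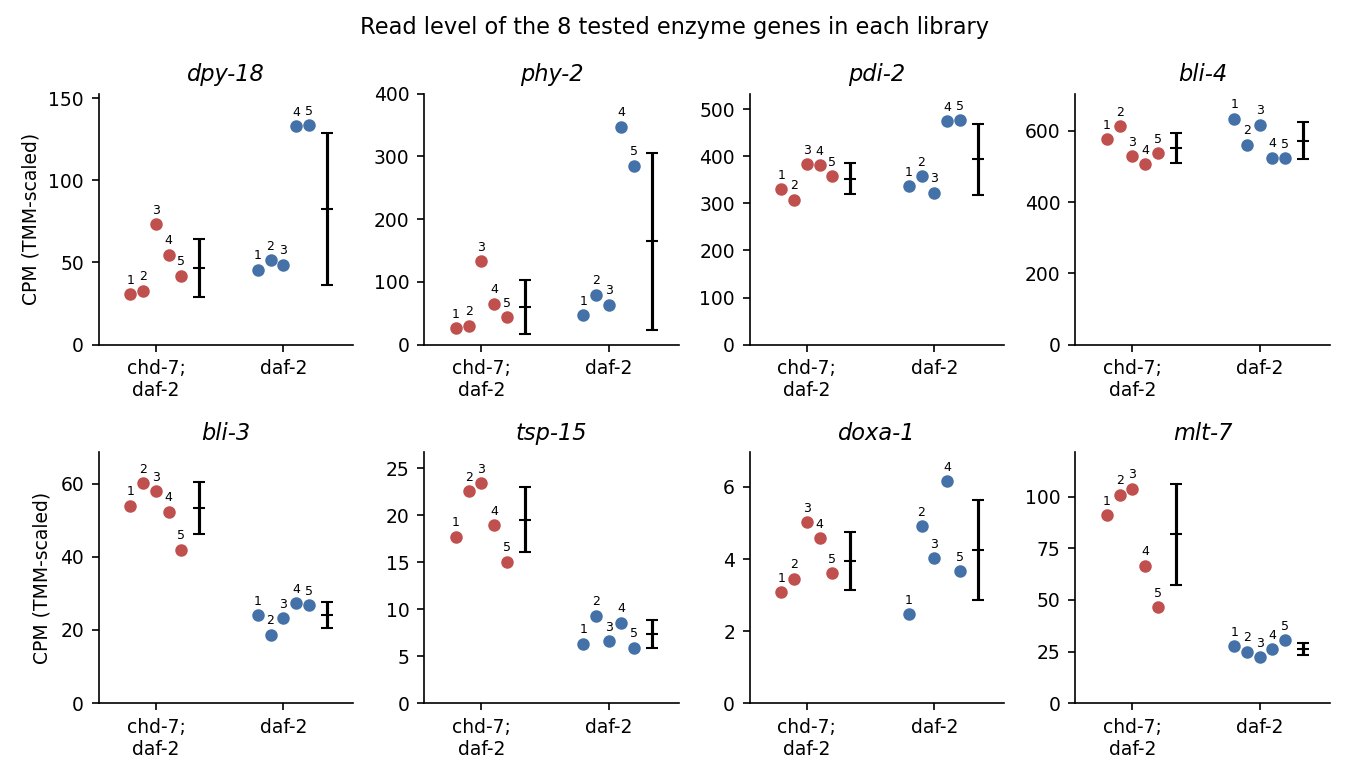
Normalised read count in CPM (vertical axes, each from 0) of the 8 tested genes in each library, with replicate numbers beside the points and the mean ± SD of 5 libraries as bars, chd-7;daf-2 on the left and daf-2 on the right. For bli-3, tsp-15 and mlt-7 all double mutant points lie above all daf-2 points, while dpy-18 and phy-2 are spread widely within each genotype.

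Libraries held 7331885 to 14997608 reads assigned to genes, and 15545 to 16907 genes had a read. The first principal component took 59.8% of the variance and separated the genotypes. The second took 13.8% and set daf-2 replicates 4 and 5 apart from the other daf-2 libraries. Within genotypes, 3 pairs of libraries were much closer than the rest when their counts were compared by chi-square over all tested genes. The chi-square per degree of freedom was 5.88 for double mutant replicates 1 and 2, 6.80 for double mutant replicates 3 and 4, and 3.97 for replicates 4 and 5 of daf-2, against 17.1 to 73.2 in the other 17 pairs. All exceed sampling noise, so the libraries were kept apart. Whether close libraries share a culture is not given in the labels, and a shared culture would leave fewer independent samples than libraries. With 1 library of each close pair left out, an alternative chosen after the counts were seen, bli-3, tsp-15 and mlt-7 were still called, at log2 fold changes of 1.13, 1.28 and 1.67. Reads over the whole chd-7 gene averaged 265 ± 20.8 CPM in double mutant libraries, against 230 ± 22.4 CPM in daf-2 (SD, n = 5 each). This does not check the labels because a deletion leaves the rest of the transcript countable. Epidermis markers were present in all libraries, with a summed level of 1203 to 1509 CPM in chd-7;daf-2, against 951 to 1109 CPM in daf-2. Marker genes of other tissues also differed: 10 of 11 body wall muscle markers were called higher and 9 of 12 germline markers lower in the double mutant. The germline sum was 65.9 to 323 CPM in chd-7;daf-2 libraries and 288 to 679 CPM in daf-2 libraries, with double mutant replicate 4 at the top of its group. Of 9 intestine markers, 2 were called higher and 4 lower. Of 9 neuron markers 2 were called higher, of 6 tested pharynx markers none was called, and yolk genes, with 2 tested, had a summed level of 2.02 to 17.4 CPM in chd-7;daf-2, against 3.67 to 107 CPM in daf-2, where replicates 2 and 3 alone exceeded 6.57 CPM. Both were called lower, vit-2 with the call lost in 11 of 21 settings and vit-6 in 12 of 21.

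The genes lie apart in the genome, with 4 on chromosome III, 3 on chromosome I and 1 each on chromosomes II, IV and X. The coordinates here are those of build WBcel235, and the lengths are the summed exonic bases of each annotated gene. They serve for position and length only, since the annotation used for counting is not given in the sources used here. Compared per exonic kilobase, the isomerase subunit gene pdi-2 had the highest level and doxa-1 the lowest level of the 8 tested. In chd-7;daf-2 the order of mean levels in CPM per exonic kilobase was pdi-2 at 185 ± 17.2, bli-4 at 73.0 ± 5.56, phy-2 at 34.4 ± 25.1, mlt-7 at 32.5 ± 9.78, dpy-18 at 25.3 ± 9.55, tsp-15 at 17.4 ± 3.07, bli-3 at 10.3 ± 1.36 and doxa-1 at 2.13 ± 0.442 (SD, n = 5). In daf-2 it was pdi-2 at 207 ± 39.9, phy-2 at 94.8 ± 81.0, bli-4 at 75.5 ± 6.84, dpy-18 at 44.8 ± 25.2, mlt-7 at 10.4 ± 1.22, tsp-15 at 6.52 ± 1.35, bli-3 at 4.63 ± 0.673 and doxa-1 at 2.30 ± 0.745 (SD, n = 5). The SD ranges of the neighbours phy-2, mlt-7 and dpy-18 in chd-7;daf-2, and of phy-2, bli-4 and dpy-18 in daf-2, overlapped. Their order was not tested. Within single libraries dpy-18 stood at 0.361 to 0.910 of phy-2 in daf-2, and at 0.520 to 1.08 of it in chd-7;daf-2. On this scale mlt-7 stood above 74.4% of the 11517 tested genes with a length in chd-7;daf-2, against 43.6% in daf-2. The shares below tsp-15 were 58.2% in chd-7;daf-2 and 32.5% in daf-2, and those below bli-3 were 43.3% in chd-7;daf-2 and 25.5% in daf-2.

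The first step is proline hydroxylation, carried out by prolyl 4-hydroxylase, whose catalytic subunits are encoded by dpy-18 and phy-2 and whose other subunit is the protein disulfide isomerase PDI-2. dpy-18 (III:11372886-11377980, minus strand, 1840 exonic bases) had 30.6, 32.9, 73.1, 54.7 and 41.8 CPM in chd-7;daf-2 replicates 1 to 5, and 45.7, 51.3, 48.7, 133 and 134 CPM in daf-2 replicates 1 to 5. Replicate 3 was the highest double mutant library, replicates 4 and 5 stood well above the other daf-2 libraries, and the genotypes overlapped. Means were 46.6 ± 17.6 CPM in chd-7;daf-2, against 82.5 ± 46.4 CPM in daf-2 (SD, n = 5 each). Its log2 fold change was -0.82 ± 0.38 (SE), with a 95% interval of -1.65 to 0.01, and did not pass the test (edgeR quasi-likelihood, adjusted p = 0.109).

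phy-2 (IV:12211097-12215987, minus strand, 1736 exonic bases) varied more than any other tested member. It had 26.7, 29.9, 133, 65.6 and 44.1 CPM in chd-7;daf-2, and 47.4, 79.4, 63.5, 347 and 285 CPM in daf-2. The same libraries as for dpy-18 were high: chd-7;daf-2 replicates 3 and 4 and replicates 4 and 5 of daf-2, and the genotypes overlapped. The log2 fold change was -1.46 ± 0.64 (SE), with a 95% interval of -2.87 to -0.05 and an adjusted p of 0.0964. This value rested on few libraries. Without chd-7;daf-2 replicate 3 it was -1.99 and passed (adjusted p = 0.0421), and without daf-2 replicates 4 and 5 together, an alternative chosen after these values were seen, it was -0.09 (adjusted p = 0.912). Under that alternative dpy-18 was at -0.06 (adjusted p = 0.876). The 4 libraries in which both genes were high form 2 of the close pairs described above.

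pdi-2 (X:4524155-4526536, plus strand, 1898 exonic bases) encodes an isomerase that also helps other proteins fold. It had 330, 308, 383, 381 and 358 CPM in chd-7;daf-2, and 336, 357, 323, 474 and 476 CPM in daf-2. Its daf-2 replicates 4 and 5 were again the highest of all libraries, and the genotypes overlapped. Means were 352 ± 32.6 CPM in chd-7;daf-2, against 393 ± 75.8 CPM in daf-2 (SD, n = 5 each), with a log2 fold change of -0.16 ± 0.14 (SE), a 95% interval of -0.46 to 0.14 and an adjusted p of 0.386. Without daf-2 replicates 4 and 5 its sign turned, at 0.05.

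phy-2 and dpy-18, the genes of the catalytic subunits, varied most of the tested members between libraries of 1 genotype. The coefficient of variation of phy-2 was 72.8% in chd-7;daf-2 and 85.5% in daf-2, and that of dpy-18 was 37.7% in chd-7;daf-2 and 56.3% in daf-2. The median over all tested genes was 16.1% in chd-7;daf-2 and 20.3% in daf-2. Similarity to other genes was measured as Pearson's r of log2 CPM over the 10 libraries after the mean of each genotype was removed. The values share libraries and their depth, and they lean on the few libraries that stood high. The gene most like phy-2 was dpy-18 (r = 0.99), followed by M05D6.6 and ddo-2. The genes most like dpy-18 were ldh-1 (r = 0.99), the lactate dehydrogenase gene, then phy-2 and ddo-2, and those most like pdi-2 were nhr-19, B0403.3 and F26A3.4 (r = 0.98 for each of the 3). ddo-2 was called lower in the double mutant, which phy-2 and dpy-18 were not. It had 179 ± 34.04 CPM in chd-7;daf-2, against 629 ± 223 CPM in daf-2 (SD, n = 5 each, log2 fold change -1.81, edgeR quasi-likelihood, adjusted p = 0.000205).

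phy-2 is known in C. elegans as a gene induced by low oxygen through the transcription factor HIF-1. For this reason egl-9, nhr-57 and F22B5.4, which are induced in the same way, and ldh-1 were looked up after the values of phy-2 had been seen. egl-9, which encodes the prolyl hydroxylase that marks HIF-1 for degradation, had 99.1, 88.98, 282, 215 and 116 CPM in chd-7;daf-2, and 155, 182, 169, 425 and 433 CPM in daf-2. F22B5.4 had 4.21, 3.82, 14.8, 10.3 and 3.40 CPM in chd-7;daf-2, and 3.07, 5.399, 6.77, 20.7 and 21.3 CPM in daf-2. ldh-1 had 33.3, 31.4, 66.8, 59.5 and 43.9 CPM in chd-7;daf-2, and 30.7, 32.7, 30.8, 90.4 and 83.1 CPM in daf-2. ldh-1 had already come up as the gene most like dpy-18, so its pattern is not a separate observation. egl-9, F22B5.4 and ldh-1 were each highest in chd-7;daf-2 replicates 3 and 4 and in replicates 4 and 5 of daf-2, the libraries in which phy-2 was high. nhr-57, a nuclear hormone receptor gene, had 29.7 and 25.6 CPM in the first pair of these libraries and 32.4 and 32.6 CPM in the second, each the highest of its genotype. None of the 4 passed the test between genotypes, with adjusted p-values of 0.166 for egl-9, 0.413 for F22B5.4, 0.707 for ldh-1 and 0.954 for nhr-57. Body wall muscle markers were lowest in daf-2 replicates 4 and 5, at summed levels of 1203 and 1175 CPM, against 1705 to 2633 CPM in the other daf-2 libraries. In chd-7;daf-2 replicates 3 and 4 they had 4453 and 4973 CPM, with replicate 5 lower at 4424 CPM and replicates 1 and 2 higher. Neuron markers were highest of daf-2 in replicates 4 and 5, at 2382 and 2233 CPM, but highest of chd-7;daf-2 in replicate 5, at 2500 CPM. The part of any of these in the levels of dpy-18, phy-2 and pdi-2 was not tested.

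**Figure D2:**
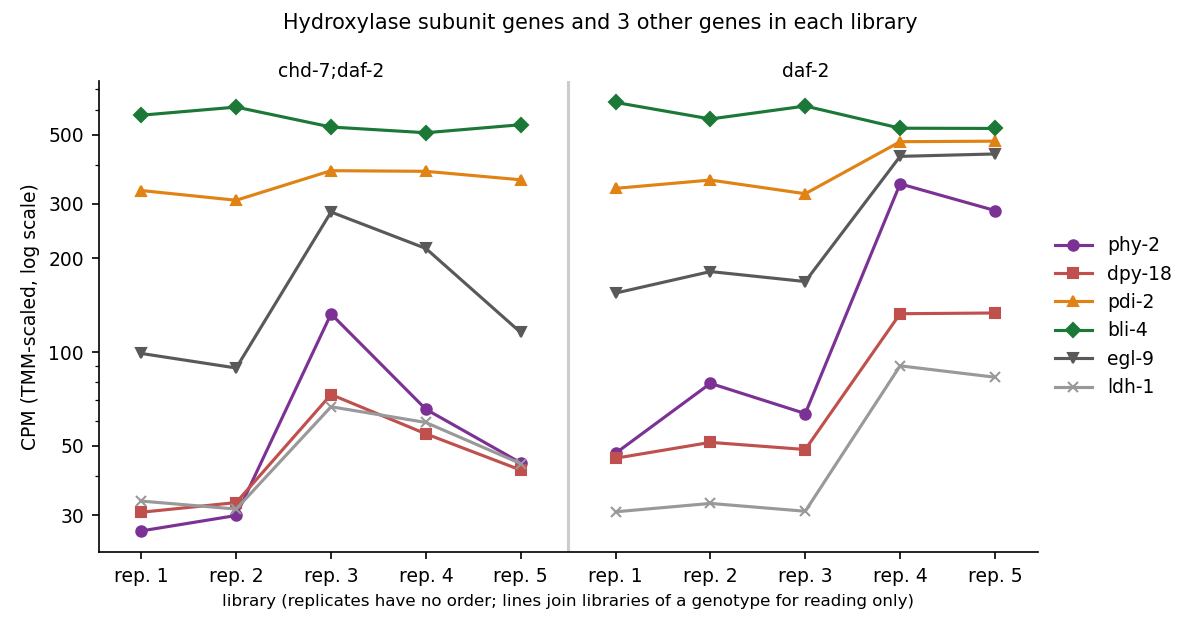
Normalised read count in CPM (log scale) of phy-2, dpy-18, pdi-2, bli-4, egl-9 and ldh-1 in each library, chd-7;daf-2 on the left and daf-2 on the right. Except for bli-4, each gene is highest in chd-7;daf-2 replicates 3 and 4 and in replicates 4 and 5 of daf-2, with phy-2 reaching 347 CPM in daf-2 replicate 4. Lines only help to follow a gene, since replicates have no order.

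The next step is proteolytic trimming. bli-4 (I:6342224-6356680, plus strand, 7570 exonic bases) encodes a furin-like proprotein convertase that cuts collagen precursors at their N-terminal side. It had 577, 613, 529, 507 and 538 CPM in chd-7;daf-2, and 634, 561, 617, 524 and 523 CPM in daf-2. The genotypes overlapped, and daf-2 replicates 4 and 5, high for phy-2, were the lowest daf-2 libraries for bli-4. Means were 552 ± 42.1 CPM in chd-7;daf-2, against 572 ± 51.8 CPM in daf-2 (SD, n = 5 each), with coefficients of variation of 7.62% in chd-7;daf-2 and 9.06% in daf-2. bli-4 had a log2 fold change of -0.05 ± 0.10 (SE), with a 95% interval of -0.27 to 0.17 (adjusted p = 0.725). The annotation gives bli-4 several transcripts that counts per gene do not separate. bli-4 shares 67 exonic bases with mut-2 and 150 with K04F10.8, both on the other strand, and the strand setting is not given. The genes most like it within the genotypes were C13E3.1, max-1 and F26F4.9 (r = 0.98, 0.97 and 0.97).

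dpy-31 (III:7202206-7207664, plus strand, 2079 exonic bases) encodes an astacin metalloprotease that cuts the C-terminal side of collagen precursors such as SQT-3. It is listed at 0 in all 10 libraries. It lies in a run of 8 neighbouring protein-coding genes (III:7198151-7230941) that are all listed at 0 in every library, among them rpl-6, which encodes a ribosomal protein of the large subunit that every cell uses. The genes on either side had reads, 668 to 1262 per library for exos-9 and 91 to 199 for adr-2. Of 76 genes with a ribosomal protein name 3 were listed at 0, and the others had a median lowest count of 14186 reads. The 0 of dpy-31 is therefore not read as a level.

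bli-5 (III:13427640-13429768, minus strand, 747 exonic bases) encodes a Kunitz-type serine protease inhibitor. It had 3, 2, 0, 2 and 2 reads in chd-7;daf-2 and 0, 2, 3, 0 and 2 reads in daf-2, or 9 and 7 reads in all. These counts are at or under the 3 counts that a value of 0 allows, which corresponded to 0.196 to 0.393 CPM per library, so a difference was not detectable at this depth and bli-5 was not tested.

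Tyrosine cross-linking is the last step. bli-3 (I:145968-154855, minus strand, 5185 exonic bases) encodes a dual oxidase, which makes hydrogen peroxide and carries a peroxidase domain of its own. It had 53.97, 60.2, 57.9, 52.3 and 42.0 CPM in chd-7;daf-2, and 24.07, 18.7, 23.2, 27.4 and 26.8 CPM in daf-2. The lowest double mutant library, replicate 5, stayed above the highest daf-2 library, replicate 4. Means were 53.3 ± 7.04 CPM in chd-7;daf-2, against 24.0 ± 3.49 CPM in daf-2 (SD, n = 5 each). bli-3 rose in the double mutant by a log2 fold change of 1.15 ± 0.13 (SE), with a 95% interval of 0.86 to 1.43 (adjusted p = 8.34e-05). Of all tested genes 6.66% had a higher log2 fold change. Its paralogue duox-2 had only 10 reads in all libraries together. Reads that align to several places were not counted, so reads shared by the pair are missing from both.

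tsp-15 (I:8928750-8931089, plus strand, 1125 exonic bases) encodes a tetraspanin that acts with BLI-3 at the epidermal surface. It had 17.7, 22.5, 23.4, 18.95 and 15.1 CPM in chd-7;daf-2, and 6.32, 9.33, 6.59, 8.57 and 5.89 CPM in daf-2. No libraries overlapped, and replicate 5 was again the lowest of the double mutant. The counts behind these values ran from 174 reads upwards in the double mutant and from 45 to 124 reads in daf-2. Means were 19.5 ± 3.46 CPM in chd-7;daf-2, against 7.34 ± 1.51 CPM in daf-2 (SD, n = 5 each). tsp-15 rose by a log2 fold change of 1.41 ± 0.17 (SE), with a 95% interval of 1.03 to 1.78 (adjusted p = 0.000149), and 4.77% of tested genes had a higher one. It shares 57 exonic bases with madd-4 on the other strand, whose reads may not be told apart because the strand setting is not given in the sources used here.

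doxa-1 (III:8581102-8583910, plus strand, 1848 exonic bases) encodes the maturation factor with which BLI-3 leaves the endoplasmic reticulum. It had 3.07, 3.45, 5.02, 4.58 and 3.601 CPM in chd-7;daf-2, and 2.48, 4.91, 4.03, 6.15 and 3.67 CPM in daf-2. The genotypes overlapped throughout, and no library stood apart. Means were 3.94 ± 0.817 CPM in chd-7;daf-2, against 4.25 ± 1.38 CPM in daf-2 (SD, n = 5 each). The log2 fold change was -0.12 ± 0.25 (SE), with a 95% interval of -0.67 to 0.43 (adjusted p = 0.739). With 28 to 89 reads per library the interval allows a rise to the upper bound, but its upper bound is below the lower bounds of bli-3, tsp-15 and mlt-7.

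mlt-7 (II:4393007-4404850, plus strand, 2515 exonic bases) encodes a secreted haem peroxidase that works with BLI-3 in cross-linking the cuticle at moults. It had 91.1, 101, 103.98, 66.6 and 46.5 CPM in chd-7;daf-2, and 27.7, 24.9, 22.2, 26.2 and 30.4 CPM in daf-2. No libraries overlapped, although double mutant replicates 4 and 5 were well below the other libraries of that genotype. Means were 81.8 ± 24.6 CPM in chd-7;daf-2, against 26.3 ± 3.07 CPM in daf-2 (SD, n = 5 each). mlt-7 rose by a log2 fold change of 1.64 ± 0.20 (SE), with a 95% interval of 1.19 to 2.08 (adjusted p = 0.000163), and 3.61% of tested genes had a higher one. Its coefficient of variation was 30.1% in chd-7;daf-2 and 11.7% in daf-2.

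**Figure D3:**
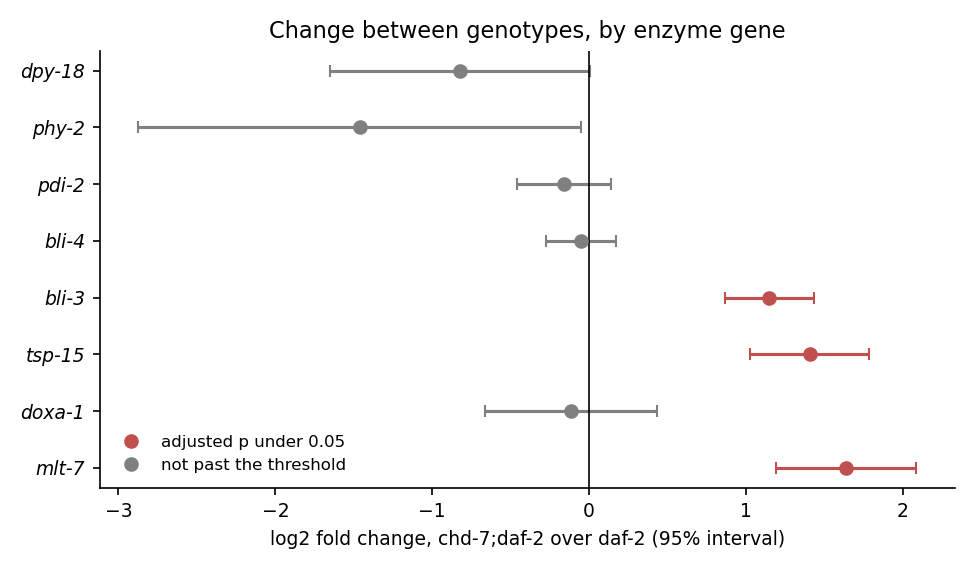
Log2 fold change of each tested gene, chd-7;daf-2 over daf-2, with its 95% interval, in the order of the steps from hydroxylation at the top to cross-linking at the bottom. The intervals of bli-3, tsp-15 and mlt-7 lie wholly above 0.86, and that of doxa-1 spans 0.

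Within the genotypes bli-3, tsp-15, doxa-1 and mlt-7 were most like different genes, which does not show whether these members varied together. Between these members themselves r ran from -0.05 for mlt-7 with doxa-1 to 0.73 for bli-3 with mlt-7. The closest to bli-3 were alfa-1, C30H6.12 and D2089.8 (r = 0.97, 0.95 and 0.93). The closest to tsp-15 were prx-11, malt-1 and bigr-1 (r = 0.94, 0.94 and 0.90), and the closest to mlt-7 were hum-5, T26C5.3 and AH9.3 (r = 0.96, 0.94 and 0.94). For doxa-1 they were W09G12.10, Y92H12A.5 and W01A8.6 (r = 0.94, 0.93 and 0.90), of which W09G12.10 had 148 reads in all. Each named gene was picked as the highest r among all tested genes over 10 libraries. High values can arise from that choice alone, and they were not tested.

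Epidermis markers moved on average in the same direction as bli-3, tsp-15 and mlt-7. Of 13 markers 7 were called higher, 0 lower and 6 not called, with elt-1 at -0.18. Their mean log2 difference from the daf-2 average was 0.24 to 0.99 in chd-7;daf-2 libraries and -0.10 to 0.06 in daf-2 libraries. dpy-7, a cuticle collagen gene at 0.109 to 7.40 CPM in chd-7;daf-2 libraries, counts in this mean like any other marker. When this mean was subtracted in each library, the remaining log2 difference of bli-3 averaged 0.58 in chd-7;daf-2, with libraries from -0.18 to 0.89, against -0.35 to 0.19 in daf-2 libraries. For tsp-15 it averaged 0.84, with libraries from 0.05 to 1.26 in chd-7;daf-2 and from -0.35 to 0.36 in daf-2. For mlt-7 it averaged 1.02, with libraries from -0.16 to 1.57 in chd-7;daf-2 and from -0.26 to 0.19 in daf-2. In each case the lowest double mutant value came from replicate 5, which had the highest marker mean, and it fell within the daf-2 range, while the other double mutant libraries lay above that range. The part of the markers in these 3 results was not tested.

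Ratios between members within a library ask whether partners of the same step kept their proportions. Each ratio was formed from counts per exonic kilobase and compared with an exact two-sided permutation test over all assignments of the libraries to groups of 5, whose smallest possible p is 0.00794, with adjustment over 5 ratios. A sixth ratio, dpy-31 to bli-4, could not be formed because dpy-31 is listed at 0. bli-3 stood at 6.18, 6.13, 4.08, 4.03 and 4.12 times doxa-1 in chd-7;daf-2, and at 3.41, 1.34, 2.03, 1.58 and 2.57 times in daf-2. The genotypes did not overlap, and daf-2 replicate 1 came closest to the double mutant libraries. The log2 ratio averaged 2.26 ± 0.33 in chd-7;daf-2 and 1.05 ± 0.54 in daf-2 (SD, n = 5 each), a difference of 1.22 (exact permutation p = 0.00794, adjusted p = 0.0397). Leaving out any 1 double mutant library took the adjusted p to between 0.0595 and 0.0794 (exact permutation), so the ratio no longer passed. The difference stayed between 1.13 and 1.28. The genotypes still did not overlap, and with so few libraries p moves in coarse steps, so this loss singles out no library. The change of bli-3 alone was 1.15 on the log2 scale, so the ratio is not separate from the call of bli-3.

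The other ratios did not pass. The log2 ratio of bli-3 to tsp-15 averaged -0.75 ± 0.11 in chd-7;daf-2 and -0.49 ± 0.44 in daf-2 (SD, n = 5 each, difference -0.26, exact permutation p = 0.238, adjusted p = 0.238). In this comparison daf-2 replicate 2 stood apart from the other daf-2 libraries, at a ratio of 0.433, and without it the difference was -0.44 and passed (exact permutation, adjusted p = 0.0198). The log2 ratio of mlt-7 to bli-3 averaged 1.61 ± 0.30 in chd-7;daf-2 and 1.18 ± 0.20 in daf-2 (SD, n = 5 each, exact permutation p = 0.0556, adjusted p = 0.139). That of dpy-18 to phy-2 averaged -0.26 ± 0.43 in chd-7;daf-2 and -0.79 ± 0.54 in daf-2 (SD, n = 5 each, exact permutation p = 0.119, adjusted p = 0.149). In daf-2 replicates 4 and 5 dpy-18 was at 0.361 and 0.442 of phy-2, the lowest values of all libraries. Both catalytic subunits together stood at a log2 ratio to pdi-2 of -1.80 ± 0.65 in chd-7;daf-2 and -0.90 ± 0.86 in daf-2 (SD, n = 5 each, exact permutation p = 0.111, adjusted p = 0.149). The summed subunits exceeded pdi-2 per exonic kilobase in daf-2 replicate 4 alone, at a ratio of 1.09.

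**Figure D4:**
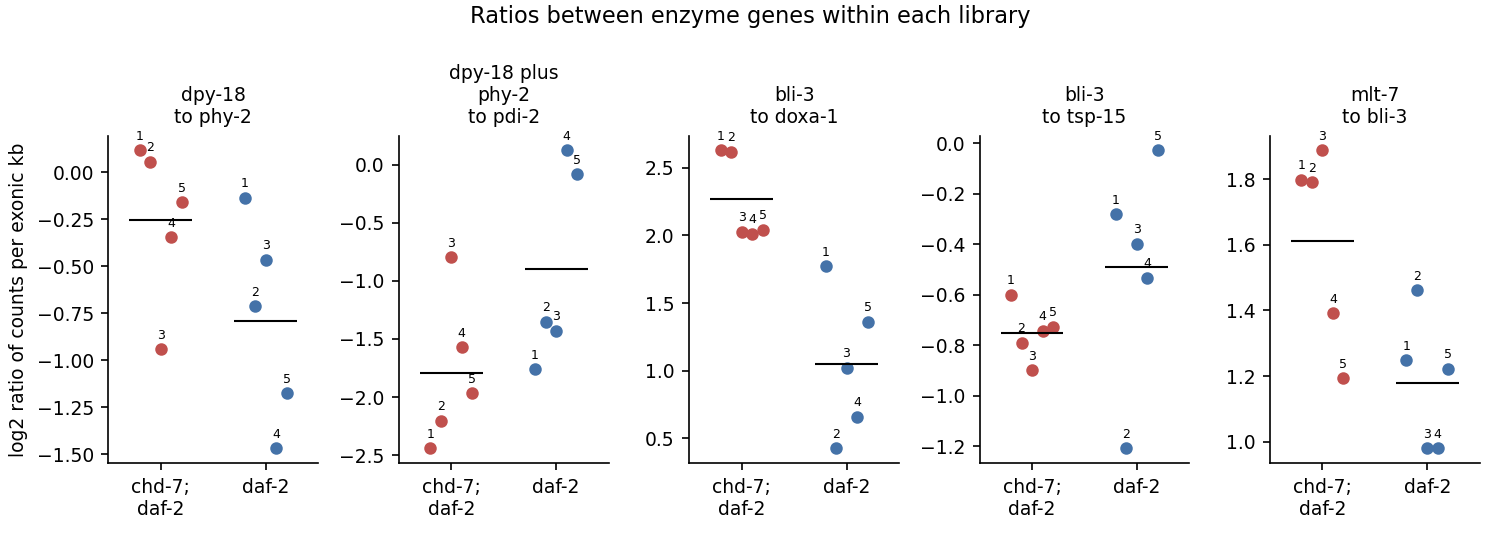
Log2 ratio of counts per exonic kilobase between members in each library, with the replicate number beside each point and the genotype mean as a line, chd-7;daf-2 on the left and daf-2 on the right. The ratio of bli-3 to doxa-1 separates the genotypes, at 2.01 or more in chd-7;daf-2 and at 1.77 or less in daf-2, and the other 4 ratios overlap.

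Related genes were read as lists of named genes. Several lists follow a gene family, and not all of their genes are known to act on cuticle collagen. Among other prolyl and lysyl hydroxylases and disulfide isomerases 6 of 8 genes were tested, 1 was called higher and 2 lower, with a median log2 fold change of -0.25. let-268, the lysyl hydroxylase gene, fell to 9.08 ± 2.499 CPM in chd-7;daf-2, against 22.1 ± 11.3 CPM in daf-2 (SD, n = 5 each, log2 fold change -1.28 ± 0.34 SE, adjusted p = 0.0135). This call was lost without daf-2 replicates 4 and 5, at -0.62 (adjusted p = 0.0682), and with 1 library of each close pair left out, at -1.01 (adjusted p = 0.118). The disulfide isomerase gene pdi-3 fell by 0.41 on the log2 scale, with 1016 ± 101 CPM in chd-7;daf-2, against 1354 ± 116 CPM in daf-2, and dnj-27, a chaperone gene of the endoplasmic reticulum, rose by 0.66. The prolyl hydroxylase genes phy-3, with 22 reads in all, and phy-4, with 0, were not tested. The call of pdi-3 was lost with 1 library of each close pair left out (adjusted p = 0.0643) and against a fold of 1.5 (adjusted p = 0.99999). In the first of these settings the list held 1 higher and 0 lower calls, and in the second none.

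Among other oxidases and peroxidases 5 of 7 genes were tested, and 1 was called higher and 0 lower, with a median log2 fold change of 0.29. skpo-3, a peroxidase gene, rose to 39.4 ± 10.1 CPM in chd-7;daf-2, against 15.4 ± 4.38 CPM in daf-2 (SD, n = 5 each, log2 fold change 1.36 ± 0.23 SE, adjusted p = 0.00127). skpo-1, a peroxidase gene of the same family, had 1.27 CPM in chd-7;daf-2, against 4.63 CPM in daf-2 and did not pass (log2 fold change -1.95 ± 0.73 SE, adjusted p = 0.0574). The peroxidasin genes pxn-1 and pxn-2 were at 0.34 and 0.29 on the log2 scale and did not pass. Calls in this list changed in 8 of 22 settings and numbered 1 to 4, so the count of 0 lower depends on the setting. DESeq2, limma and leaving out 1 library of each close pair each gave 1 higher and 1 lower. So did leaving out double mutant replicate 4, or 3 libraries. Leaving out daf-2 replicates 4 and 5 gave 3 higher and 1 lower. The replicate block and leaving out daf-2 replicate 4 alone gave 2 higher and 0 lower.

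Among other proprotein convertases, astacins and Kunitz inhibitors 7 of 9 genes were tested, 1 was called higher and 3 lower, with a median of 0.02. The astacin genes nas-36 and nas-37, which act in moulting, fell by 0.93 and 1.15 on the log2 scale. nas-37 had 5.91 ± 2.71 CPM in chd-7;daf-2, against 13.2 ± 3.33 CPM in daf-2 (SD, n = 5 each). The astacin gene nas-33 rose by 1.76 from few reads, 101 in chd-7;daf-2 and 29 in daf-2. The convertase gene aex-5 fell by 0.39, a call lost in 14 of 22 alternative settings. The call of nas-36 was lost in 8 of 21 settings and those of nas-37 and nas-33 in 3 settings each. With 1 library of each close pair left out none of the 4 calls held.

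Of 20 other tetraspanin genes 13 were tested, and 6 were called higher and 0 lower. Their median log2 fold change was 0.44. The share called was 46.2%, against 36.2% of all tested genes. With 1 library of each close pair left out 4 were called, and 3 against a fold of 1.5. tsp-9 had 36.7 ± 4.64 CPM in chd-7;daf-2, against 17.2 ± 2.95 CPM in daf-2 (SD, n = 5 each, log2 fold change 1.09, adjusted p = 0.000136). tsp-8 had 87.6 ± 23.3 CPM in chd-7;daf-2, against 42.9 ± 15.7 CPM in daf-2 (SD, n = 5 each, log2 fold change 1.03, adjusted p = 0.00875), a call lost with 1 library of each close pair left out (adjusted p = 0.0555) and against a fold of 1.5 (adjusted p = 0.105). tsp-2 and tsp-10 rose by 1.49 and 1.92 on the log2 scale. tsp-12 and tsp-14, which are known to act in BMP signalling, did not pass, at -0.22 and -0.31.

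The collagens on which these enzymes act were measured only in part. Of 21 collagen genes named for body shape or blisters 9 were tested, 3 were called higher and 0 lower, with a median log2 fold change of 0.74. dpy-9 and dpy-2, which encode cuticle collagens of the annular furrows, rose most: dpy-9 had 38.2 ± 8.62 CPM in chd-7;daf-2, against 1.13 ± 0.787 CPM in daf-2 (SD, n = 5 each, log2 fold change 5.06, adjusted p = 4.79e-06), and dpy-2 had 8.39 ± 2.35 CPM in chd-7;daf-2, against 0.754 ± 0.252 CPM in daf-2 (SD, n = 5 each, log2 fold change 3.46, adjusted p = 1.14e-05). dpy-10, another furrow collagen gene, rose by 1.36 (adjusted p = 0.0373), a call lost in 11 of 21 settings. sqt-3, whose product is a substrate of DPY-31, had 6.14 CPM in chd-7;daf-2, against 6.08 CPM in daf-2 (log2 fold change 0.02, adjusted p = 0.978). dpy-4, lon-3, bli-1 and bli-2 are listed at 0 in all libraries.

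Of the 3 collagen genes of the basement membrane, whose chains are folded by the same machinery, 2 were called higher. cle-1, the type XVIII collagen gene, rose by 1.18 on the log2 scale, with 41.8 ± 8.35 CPM in chd-7;daf-2, against 18.4 ± 2.37 CPM in daf-2 (SD, n = 5 each). let-2, a type IV collagen gene, rose by 0.87, and its partner emb-9 was at 0.42 and did not pass (adjusted p = 0.0821). Body wall muscle is a known source of type IV collagen, and its 11 markers had a summed level of 4424 to 6388 CPM in chd-7;daf-2, against 1175 to 2633 CPM in daf-2. The part of the muscle markers in the basement membrane collagens was not tested.

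Chaperones and prolyl isomerases of the endoplasmic reticulum had 9 tested genes, of which 4 were called higher and 0 lower, with a median of 0.50. The isomerase genes fkb-3, fkb-4 and fkb-5 rose by 1.47, 2.27 and 2.45 on the log2 scale. fkb-3 had 54.1 ± 11.2 CPM in chd-7;daf-2, against 19.6 ± 4.42 CPM in daf-2 (SD, n = 5 each, adjusted p = 0.000154). hsp-4, which encodes a BiP chaperone, rose by 0.62, whereas hsp-3, the gene of the other BiP, was at -0.48 and did not pass (adjusted p = 0.0685). Of 10 tested genes for collagen export from the endoplasmic reticulum 0 were called higher and 1 lower, with a median of -0.04. That gene was sar-1, the GTPase of transport vesicles, which fell by 0.49 (adjusted p = 0.0438), a call lost in 11 of 22 settings. Across these 8 wider lists, chosen with earlier results of these data known, 24 of 62 tested genes were called, 18 higher and 6 lower. The share called in either direction was 38.7%, against 36.2% of all tested genes, and the share called higher was 29.0%, against 17.9%. With 1 library of each close pair left out 15 were called, 14 higher and 1 lower. Of the 18 higher calls over all libraries 6 were tetraspanins, so these shares do not describe cuticle collagen alone.

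**Figure D5:**
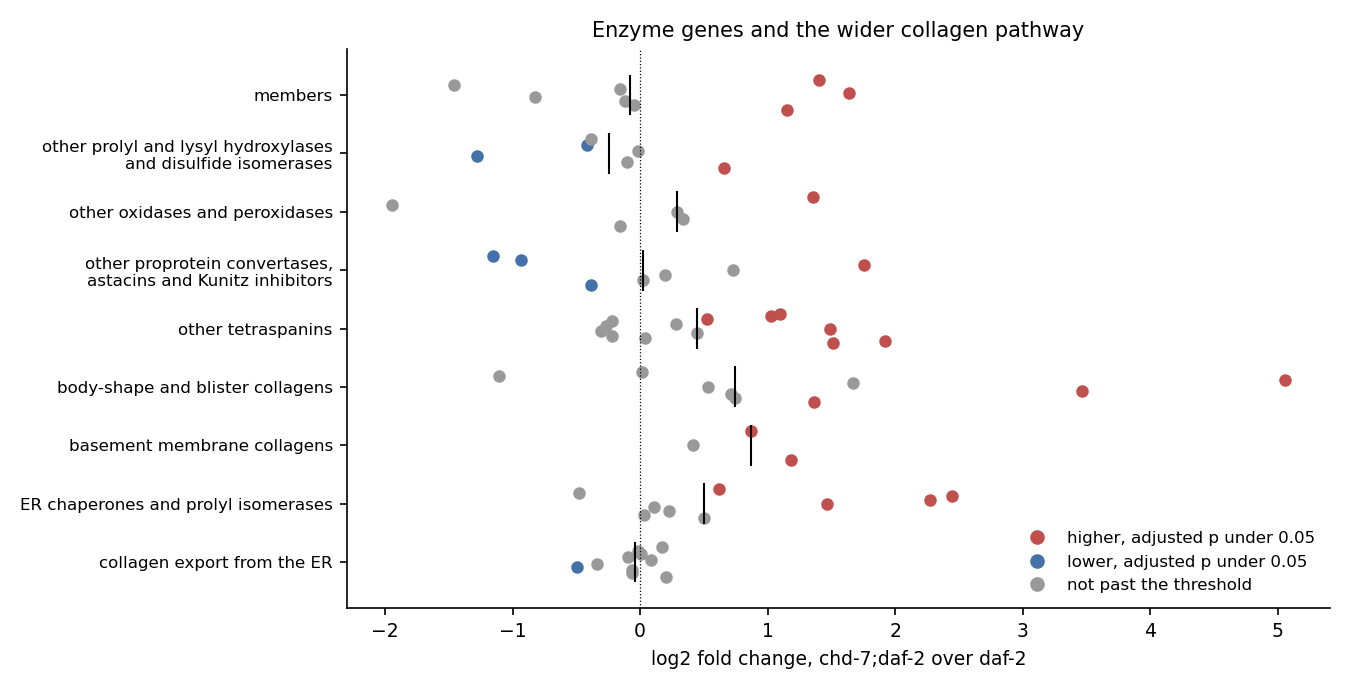
Log2 fold change, chd-7;daf-2 over daf-2, of each tested gene in the member list (top) and in 8 wider lists, with called genes in colour and the median of each list as a vertical bar. The members span -1.46 to 1.64, and all 6 called tetraspanins lie to the right of 0.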

How the data were processed

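The authors deposited 1 table per library of whole-number read counts per gene name, not normalized. Versions in the submitters' processing notes are 2.5.4a for STAR, 0.9.1 for HTSeq, 0.11.5 for FastQC and 1.20.0 for DESeq2. The sources used here do not give the build, annotation or strand setting. HTSeq tallies that name no gene were 11.3% to 18.9% of reads plus tallies and stayed out of library sizes. Gene positions and summed exon lengths are those of Ensembl's WBcel235 annotation.

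edgeR 4.0.16 in R 4.3.3 was run with filterByExpr (minimum count 10, minimum total 15), TMM scaling and a robust quasi-likelihood F test of genotype over all 10 libraries with no covariate, adjusted by Benjamini-Hochberg over 12499 genes at 0.05. CPM use TMM-scaled library sizes. The SE is the log2 fold change over the square root of F. Intervals and the limit for a count of 0 cover the stated error only, counting error for the latter. Log2 CPM used a prior count of 2, and ratios a pseudocount of 0.5 reads. The code was tested on simulated counts.

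Members and lists were chosen with earlier results of these data known. The text names all members, up to 4 called genes per direction with the lowest p in each wider list, the 3 genes most like each tested member, and, chosen after values were seen, egl-9, ldh-1, nhr-57, F22B5.4 and uncalled list genes given for contrast. The names tmem-131 and tmem-39 were matched as C27F2.8 and D1007.5 through RefSeq locus tags, and sec-16A.1 was not matched. The results were recomputed with DESeq2 1.42.0, with limma 3.58.1 (voom and sample weights), and under other scalings and filters, a fold threshold of 1.5, a replicate block and left-out libraries, of which 2 sets were chosen after seeing the data. No sequences were printed.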

Additional observations from a re-analysis of the deposited data

How the results depend on the processing

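bli-3, tsp-15 and mlt-7 were called higher in all 22 settings tried, at log2 fold changes of 1.03 to 1.27, 1.28 to 1.4998 and 1.54 to 1.77, with highest adjusted p-values of 0.00268, 0.00440 and 0.00365. The members called numbered 3 to 4 when 1 library was left out, the fourth being phy-2. Of 12499 tested genes 4523 were called, and 3358 to 4617 with 1 library left out. Against a fold of 1.5 (glmTreat) 1214 genes were called, and 10 of the 24 in the wider lists, for which leaving out 1 library gave 19 to 27. With 1 library of each close pair left out 2659 genes were called, and 15 in the wider lists. Signs turned at small values: bli-4 was at 0.0015 without replicate 4 of chd-7;daf-2 and replicates 2 and 3 of daf-2, doxa-1 ran from -0.27 to 0.060 with 1 library left out, and without daf-2 replicates 4 and 5 pdi-2 was at 0.052 and doxa-1 at 0.049. With 1 library left out the difference of the bli-3 to doxa-1 ratio ran from 1.06 to 1.40 and that of bli-3 to tsp-15 from -0.44 to -0.15. The ratio tests under the block cannot pass 0.05. Without 3 libraries, and with 1 of each close pair left out, a pass would need several ratios at the smallest possible p together. With 1 of each close pair left out no ratio passed, and bli-3 to doxa-1 had an adjusted p of 0.286 (exact permutation) at a difference of 1.26.

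The genotypes shared replicate numbers, which the labels tie to no common batch or day. Correlations of same-numbered deviations ran from -0.19 to 0.33, and 5 of 10 libraries correlated best with their own number, so the data do not settle whether the numbers pair the libraries. A replicate block gave 4764 called genes, 27 in the wider lists and 3 members. Scaling moved the median of all genes by less than 0.1 on the log2 scale. Depth limits bli-5 and, at 28 to 89 reads per library, doxa-1.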
